A study of Mus musculus with 8 samples.

Results

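The genes described here are interferon response genes, whose RNA rises when a cell senses interferon. They were taken by name, through the array annotation, from a list of 39 such genes, which was drawn up with earlier results of these data known. Of the 39, 35 had a probe set that the annotation maps to a single gene symbol, and 4 (Isg15, Xaf1, Ifi44 and Ly6e) had none that could be used and were dropped. A further 3 (Adar, Mx2 and Socs1) were too dim to be tested, which left 32 members among 7825 genes tested.

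RNA was taken from cells of the lymph nodes of B10.BR mice, an inbred strain, after a flow cytometry sort. The groups were naive mice (3 arrays), mice at day 7 after immunization (3 arrays) and mice at day 28 after immunization (2 arrays), each array made from 10 µg of total RNA. Neither the immunogen nor the surface phenotype used for sorting is named in the labels, and age and sex are absent. Whether the replicates are separate animals or pools is likewise not given, so p-values measure only the spread between these arrays, which may be technical. Each value is a log2 ratio of a probe set's level to its own 8-array median, with a shared floor in place of a lower median. A value of 0 therefore marks that median or floor, and a ratio does not rank genes by abundance. Where a gene had several tested probe sets, its value is their mean.

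Interferons are cytokines that warn cells of infection. Type I interferons, made by many cell types, act through a complex of STAT proteins and IRF9 that binds the interferon-stimulated response element (ISRE), whereas interferon-gamma, made by activated T cells and NK cells, acts through STAT dimers that bind the gamma-activated site (GAS). The induced genes encode antiviral enzymes, sensors of foreign nucleic acid, GTPases that attack vacuoles of intracellular microbes, and inhibitors that end the response. In resting lymphocytes a low, tonic interferon signal keeps many of them at a basal level.

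Matches to the ISRE and the GAS in the promoters of the members are shown first. RefSeq promoter windows of mouse build GRCm38.p6, each 300 bases long (250 before the transcript start and 50 after it), were found for 29 of the 39 members, as 38 windows. The members not matched were Dhx58, Iigp1, Ly6e, Mx1, Mx2, Oas2, Parp14, Rtp4, Usp18 and Zbp1. The ISRE core GAAANNGAAA, searched on both strands, was present in 16 of the 38 member windows (42.1%) and in 1131 of all 32851 windows (3.44%). The GAS core TTCNNNGAA, which reads the same on both strands, was present in 10 of the 38 (26.3%) and in 2726 of all windows (8.30%). By gene, 15 of the 29 members had an ISRE core, 10 a GAS core, 4 both (Bst2, Eif2ak2, Igtp and Oas1a) and 8 neither. A match is a run of letters and not a measured binding site, and matches in tandem can overlap.

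The 160 bases before the transcript start are printed for 7 members that differ in how the core is placed, 5′ to 3′ along the gene, with each ISRE core in capitals. Ifit3 (chr19:34583369-34583528, plus strand) and Ifit1 (chr19:34640729-34640888, plus strand), genes of the same cluster on chromosome 19, each hold 2 separate cores. Rsad2 (chr12:26456453-26456612, minus strand), Gbp2 (chr3:142620503-142620662, plus strand) and Igtp (chr11:58199396-58199555, plus strand) hold 1 each. Oas1a (chr5:120907526-120907685, minus strand) holds 2 that overlap next to the start. Irf7 (chr7:141266425-141266584, minus strand) is shown as a member without a match.
Ifit3: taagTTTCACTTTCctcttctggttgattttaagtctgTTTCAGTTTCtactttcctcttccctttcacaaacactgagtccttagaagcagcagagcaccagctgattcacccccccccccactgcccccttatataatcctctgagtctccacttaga
Ifit1: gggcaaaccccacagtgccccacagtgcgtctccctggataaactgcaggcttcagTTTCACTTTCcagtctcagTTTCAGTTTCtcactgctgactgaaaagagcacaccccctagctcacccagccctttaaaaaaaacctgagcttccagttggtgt
Rsad2: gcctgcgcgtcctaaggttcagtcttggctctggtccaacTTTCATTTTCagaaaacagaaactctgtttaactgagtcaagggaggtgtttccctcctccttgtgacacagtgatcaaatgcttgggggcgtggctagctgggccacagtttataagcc
Oas1a: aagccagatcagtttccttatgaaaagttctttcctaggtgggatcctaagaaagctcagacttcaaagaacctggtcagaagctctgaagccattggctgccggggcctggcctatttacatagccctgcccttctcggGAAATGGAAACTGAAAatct
Gbp2: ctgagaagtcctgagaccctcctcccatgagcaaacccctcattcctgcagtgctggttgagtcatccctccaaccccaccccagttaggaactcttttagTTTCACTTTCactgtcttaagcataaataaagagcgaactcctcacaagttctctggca
Igtp: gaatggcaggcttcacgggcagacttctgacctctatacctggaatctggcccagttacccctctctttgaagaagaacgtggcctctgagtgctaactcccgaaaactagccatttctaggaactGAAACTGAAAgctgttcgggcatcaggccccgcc
Irf7: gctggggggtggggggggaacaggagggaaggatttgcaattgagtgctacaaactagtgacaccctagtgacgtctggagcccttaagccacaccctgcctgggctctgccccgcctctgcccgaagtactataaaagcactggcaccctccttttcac

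**Figure D1:**
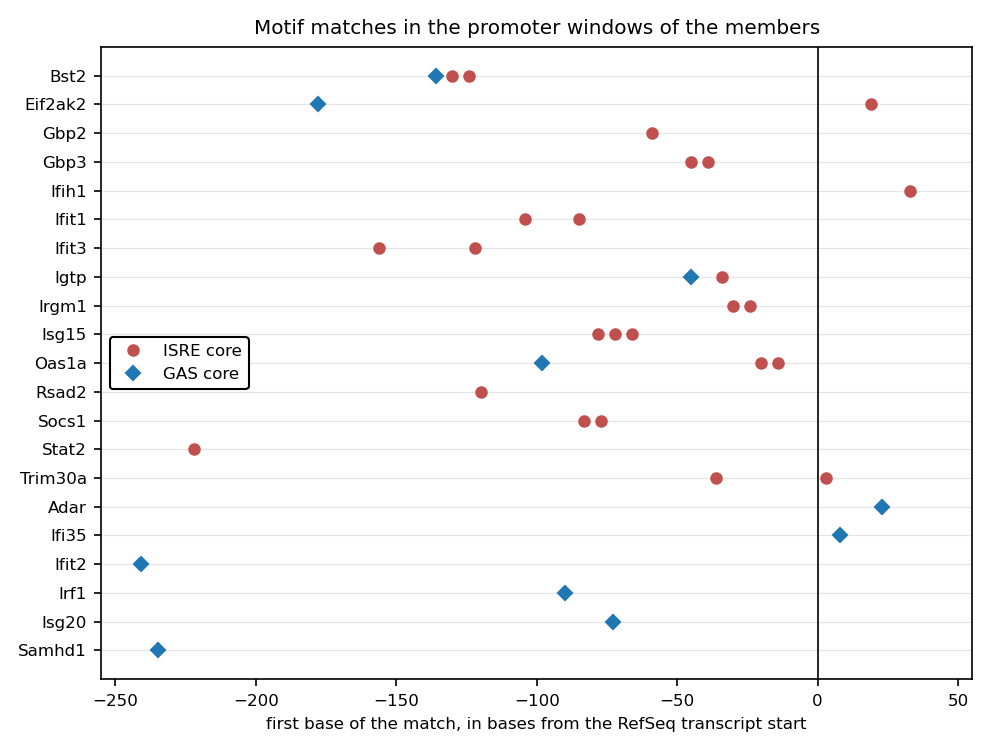
First base of each ISRE core (red circles) and GAS core (blue diamonds) in the promoter windows of the members that hold at least 1, in bases from the RefSeq transcript start. In Ifit3 the ISRE cores begin at -156 and -122, in Ifit1 at -104 and -85, and in Oas1a at -20 and -14.

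The arrays differed in ways that the groups do not account for. There were 18 probe sets for spike-in controls (BioB, BioC, BioD and Cre, RNA that tracks hybridisation). Their median log2 ratios were -1.16 on naive replicate 1 and -1.70 to -1.03 on the day 7 arrays. On naive replicates 2 and 3 and on the day 28 arrays they were 0.64 to 1.41. The main axis of variation over all genes tested (43.0% of the variance) likewise placed naive replicate 1 on the side of the day 7 arrays. Eif2s3y, a Y-linked gene, was high on naive replicate 1 (2.87) and day 28 replicate 1 (3.70), with all others between -0.59 and 0.24. Xist, the X-inactivation RNA, was at -4.24, -4.47 and -0.91 on naive replicates 1 to 3, at 1.14 to 1.72 on the day 7 arrays, and at -4.35 and 0.18 on the day 28 arrays. The arrays were thus not matched for these sex-linked genes, and Xist separated naive replicates 1 and 2 from replicate 3. The part of this in the values of the members was not tested.

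Interferon response genes differed widely among the naive arrays. The 32 tested members had a median log2 ratio of 1.01 on naive replicate 1, a similar 0.93 on replicate 2, but -0.64 on replicate 3. It was 0.08, -0.36 and 0.00 on the day 7 arrays and -0.11 and -0.24 on the day 28 arrays. Over all genes tested the array medians ran only from -0.24 (naive replicate 3) to 0.19 (day 7 replicate 1). The naive arrays thus held both the highest and the lowest medians of the members, and every immunized array lay between them. In bulk RNA of sorted cells, fewer cells that express a gene and less RNA per cell cannot be told apart.

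**Figure D2:**
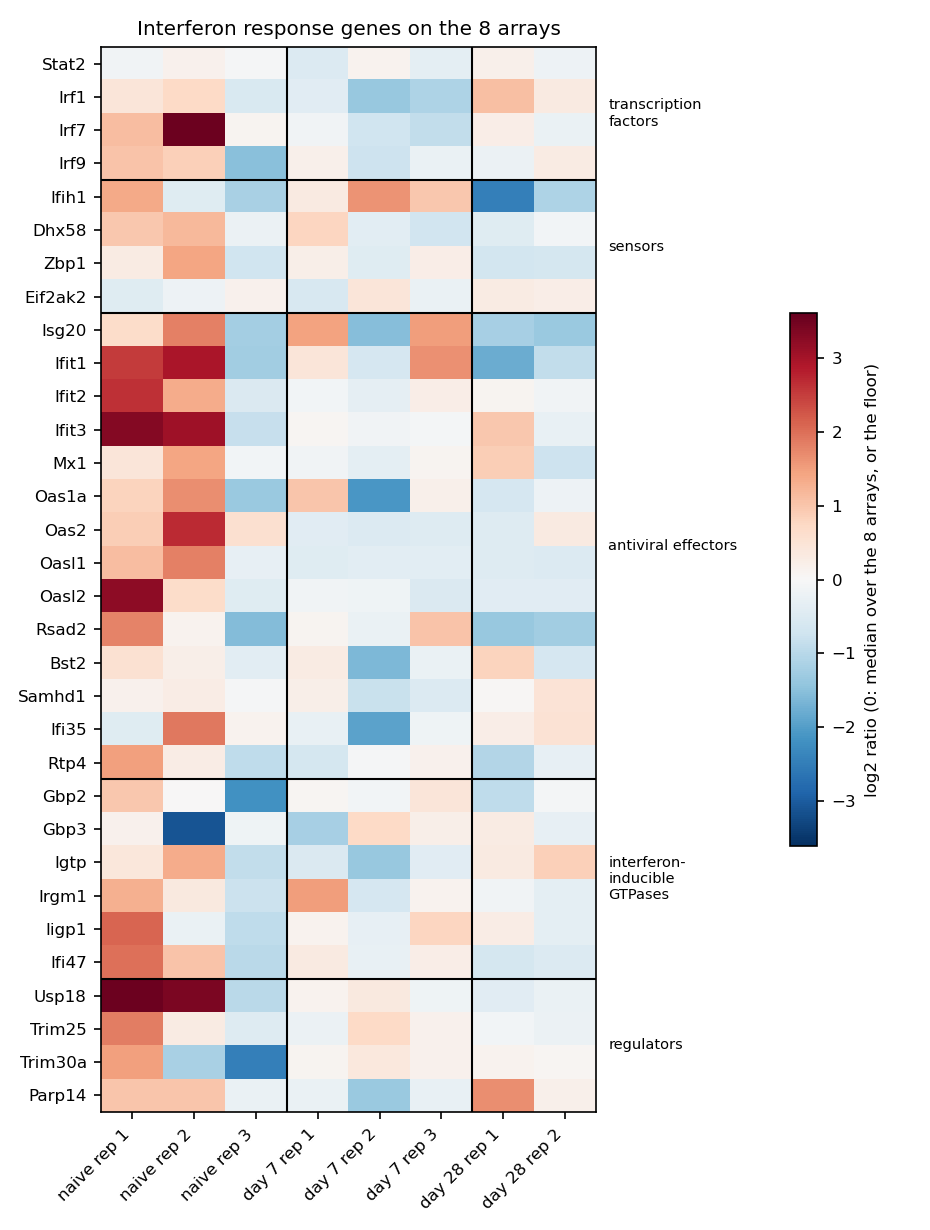
Log2 ratio of the 32 tested interferon response genes (rows, grouped by role) on the 8 arrays (columns). Naive replicates 1 and 2 carry most of the strong red cells (Usp18 at 3.52 and 3.38), whereas naive replicate 3 is mostly blue (Usp18 at -0.98). The immunized arrays are paler for Usp18 and Ifit3, with strong cells in other genes such as Ifih1 (-2.47 on day 28 replicate 1).

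The spread among the naive arrays was large for these genes. The median SD of a member over the 3 naive arrays was 1.26 on the log2 scale, against 0.53 over all genes tested. The corresponding medians were 0.47 and 0.33 at day 7, and 0.30 and 0.29 at day 28 (2 arrays). An SD over 1 was found in 24 of 32 members (75.0%) and in 1513 of 7825 genes (19.3%). Naive replicate 3 was the lowest naive array in 28 of 32 members (87.5%) and in 45.7% of all genes. Naive replicate 1 lay above every immunized array in 18 members (56.2%, against 20.5% of all genes), and so did naive replicate 2 in 18 members (19.1% of all genes). Naive replicate 3 lay above every immunized array in 2 members and below every one in 12 (37.5%, against 33.8% of all genes).

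**Figure D3:**
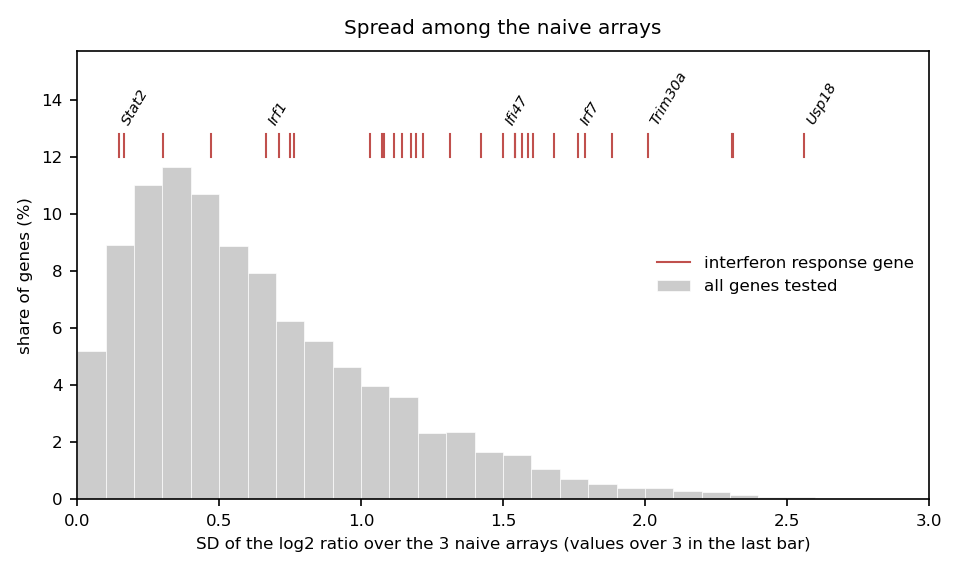
SD of the log2 ratio over the 3 naive arrays: grey bars give the share of all 7825 genes tested in each class, and red ticks mark the 32 interferon response genes. Usp18 lies farthest right at 2.56, and Stat2 farthest left of the members at 0.15.

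Usp18 (gene ID 24110), the protease that removes ISG15 from proteins and damps signalling at the type I interferon receptor, varied most among the members. Its log2 ratios were 3.52, 3.38 and -0.98 on naive replicates 1 to 3, then 0.13, 0.34 and -0.14 at day 7 and -0.41 and -0.23 at day 28. The naive arrays spanned 22.7-fold, with immunized arrays of both days clustered inside that span. Only 0.17% of genes tested had a naive SD as large as or larger than that of Usp18 (2.56). Ifit3 (gene ID 15959), a member of the tetratricopeptide family that restrains translation of viral RNA, had the same shape, with 3.29, 3.05 and -0.82 on naive replicates 1 to 3. Its values were 0.08, -0.13 and -0.08 at day 7 and 0.98 and -0.28 at day 28. Ifit1 (gene ID 15957), which binds viral RNA caps, had 2.50, 2.93 and -1.26 on naive replicates 1 to 3. Its day 7 values were 0.43, -0.61 and 1.64, and its day 28 values -1.78 and -0.90. Its SD at day 7 was 1.13.

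The members did not all follow that shape, and the naive replicate with the highest value differed between genes. Naive replicate 1 was the highest naive array in 17 members (53.12%, near the 48.14% of all genes). Naive replicate 2 was the highest in 14 (43.75%, against 29.65% of all genes). Oasl2 (gene ID 23962), an oligoadenylate synthetase-like protein, was at 3.23 on naive replicate 1 but at 0.67 and -0.44 on naive replicates 2 and 3. On the immunized arrays it ran from -0.51 to -0.12. It passed the filter on naive arrays only, so the filter itself required a difference of it. Iigp1 (gene ID 60440), a GTPase that disrupts the vacuole of intracellular parasites, was at 2.08 on naive replicate 1, above all immunized arrays (-0.36 to 0.78), at -0.25 on replicate 2, within their range, and at -0.90 on replicate 3, below it. Trim30a (gene ID 20128), a TRIM family protein of innate immunity, ran from 1.49 on naive replicate 1 through -1.16 to -2.46 on naive replicate 3, whereas its immunized arrays lay from 0.06 to 0.39. In this mean of 2 probe sets the naive arrays therefore enclosed all immunized arrays, with 2 of 3 below them. The probe sets disagreed on day 28 replicate 2 (-1.44 and 1.57), and neither alone showed the whole pattern. Irf7 (gene ID 54123), the factor that amplifies type I interferon production, had instead 1.11, 3.54 and 0.11 on the naive arrays. Oas2 (gene ID 246728), an oligoadenylate synthetase that triggers RNA decay, likewise had its highest value on naive replicate 2 (0.88, 2.69 and 0.57). Gbp3, a guanylate-binding protein, stood apart by a low value on naive replicate 2 (0.15, -3.10 and -0.17).

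A few members hardly varied among the naive arrays. Stat2 (gene ID 20847), the STAT protein of the type I complex, had naive values of -0.13, 0.16 and -0.04. Its day 7 values of -0.49, 0.11 and -0.34 and its day 28 values of 0.20 and -0.17 overlapped them. Samhd1, which depletes nucleotides needed by viruses, had a naive SD of 0.17, and Eif2ak2, the kinase PKR that halts translation on double-stranded RNA, of 0.30. The value of Samhd1 is a mean of 4 probe sets that disagreed, each with a larger naive SD (0.37 to 1.70). Bst2, tetherin, which holds budding viruses at the membrane, had naive values of 0.54, 0.21 and -0.39 and ran from -1.63 to 0.80 over the immunized arrays, so its spread there was wider. Irf9 (gene ID 16391), the DNA-binding partner of Stat2, did vary, with 1.03, 0.86 and -1.51 on the naive arrays.

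The members with an ISRE core did not stand apart in this spread. For the 13 tested members with a core in their window, the naive SD ran from 0.15 to 2.31 with a median of 1.54. For the 11 with a window but no core it ran from 0.17 to 1.88 with a median of 1.42. Ifit3 and Ifit1, printed above with 2 separate cores each, had naive SDs of 2.31 and 2.31, and Irf7, printed without a match, had 1.76.

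The day 7 arrays were set against the naive arrays first. In limma's test over all genes, 0 of 32 members were called higher, against a background of 1.57% of genes called higher, and 0 were called lower, against 0.179%. At an unadjusted p under 0.05, 4 members were lower (Oas2, Irf7, Irf1 and Oasl1) and 0 higher. Over all 7825 genes tested, 268 were lower and 1065 higher. The median log2 difference of the members was -0.62, with 24 of 32 differences negative (75.0%), whereas over all genes tested it was 0.12, with 42.6% negative. Without naive replicates 1, 2 and 3 in turn, the median of the members was -0.36, -0.42 and -1.11, and without day 7 replicate 2 it was -0.41. With array weights, whose estimation did not converge, 8 of 32 members were called (7 lower, 1 higher), a similar share to that of all genes (1852 of 7825).

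Groups did not overlap in 4 members, all lower at day 7 (background 8.26% of genes), and in 0 that were higher (background 14.3%). These 4 were Oas2, Irf7, Oasl1 and Parp14. Oasl1 passed the filter on naive arrays only, so the filter itself required a difference of it, here and in the counts above and below. The same holds for Oasl2 in the counts of negative differences and of naive arrays above every immunized array. Oas2 was at -0.40, -0.49 and -0.46 at day 7, a log2 difference of -1.83 ± 0.54 (SE, 3 arrays per group, limma adjusted p = 0.150). Irf7 was at -0.12, -0.72 and -0.88 at day 7, a difference of -2.16 ± 0.78 (adjusted p = 0.227). Oasl1 (gene ID 231655), an inhibitor of Irf7 translation, had naive values of 1.10, 1.82 and -0.30 and day 7 values from -0.43 to -0.37 (-1.27 ± 0.50, adjusted p = 0.259). Its lowest naive value lay just above the day 7 values. Parp14, an ADP-ribosyltransferase, had naive values of 1.004, 1.001 and -0.226, against -0.24, -1.35 and -0.27 at day 7 (-1.21 ± 0.54, adjusted p = 0.309). Here too the gap between the groups was small. The largest negative differences among members whose groups overlapped were those of Ifit3 (-1.89 ± 1.0, adjusted p = 0.386) and Usp18 (-1.87 ± 1.07, adjusted p = 0.417). Without naive replicate 3 both were called, Ifit3 at -3.22 (adjusted p = 0.0378) and Usp18 at -3.34 (adjusted p = 0.00629). That fit leaves out the naive array that lay farthest from the others in both genes. It called 40 of 7825 genes, against 137 in the main fit.

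By role, all 4 transcription factors had negative differences at day 7. Irf1 (gene ID 16362), which drives antigen presentation genes after interferon-gamma, had naive values of 0.44, 0.72 and -0.55, against -0.42, -1.36 and -1.10 at day 7 (-1.16 ± 0.43, adjusted p = 0.239). The groups overlapped through naive replicate 3. Irf9 had -0.38 ± 0.66 and Stat2 -0.23 ± 0.28. Of 14 antiviral effectors, 12 had negative differences, with a median of -0.81. Of 6 interferon-inducible GTPases, 3 were negative and 3 positive, with a median of -0.03. Igtp (gene ID 16145), which controls intracellular parasites, had -1.05 ± 0.56, and Gbp2 (gene ID 14469), a guanylate-binding protein, 0.52 ± 0.72. The cytosolic RNA sensor Ifih1 (gene ID 71586), also known as MDA5, had a positive difference (1.05 ± 0.69, adjusted p = 0.465), with day 7 values of 0.33, 1.61 and 0.98 against naive values of 1.38, -0.44 and -1.18. Its groups overlapped because naive replicate 1 was high. Trim30a also had a positive difference (0.93 ± 0.85, adjusted p = 0.598). Without naive replicate 1 it was called higher at day 7 (2.03, adjusted p = 0.0204). That fit called 1121 of 7825 genes, against 137 in the main fit. The day 7 mean of Trim30a lay below naive replicate 1, by a log2 difference of -1.27. Its value with a spike-in term in the fit was also -1.27.

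Within the arrays of low spike-in signal, the mean of the 3 day 7 arrays lay below naive replicate 1 in 31 of 32 members (96.9%, against 50.8% of all genes), with a median difference of -1.28. That contrast rests on 1 naive array, and whether the spike-in signal has a part in it was not tested. Naive replicates 1 and 2, which had the highest medians of the members, lay on opposite sides of the spike-in signal (-1.16 and 0.85).

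**Figure D4:**
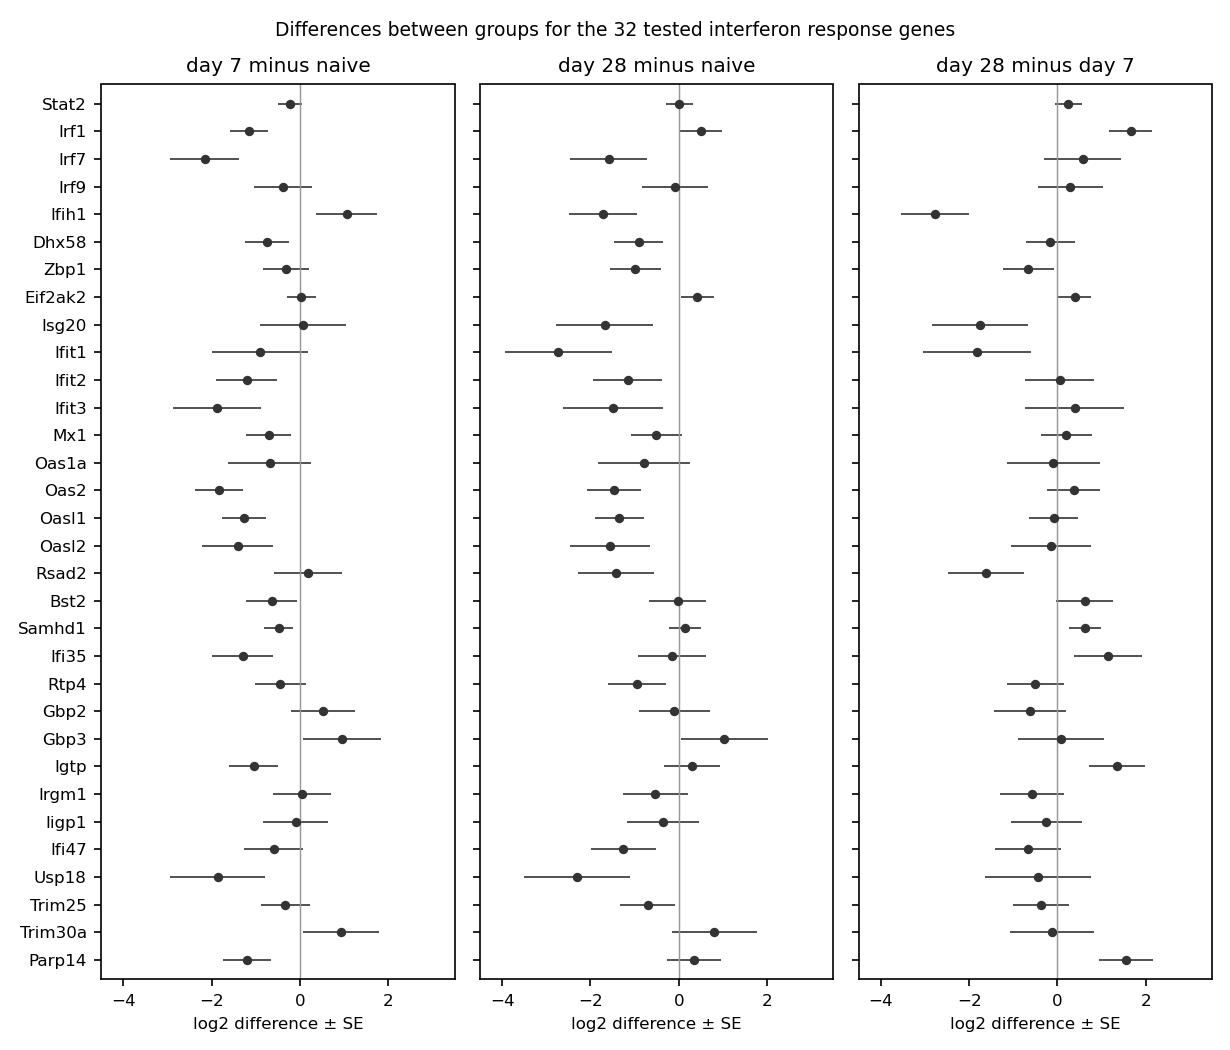
Log2 differences between groups, with their SE from the limma fit, for the 32 tested members. At day 7 against naive 24 of 32 points lie below 0, at day 28 against naive 24, and at day 28 against day 7 17, and none of them passed the threshold.

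The comparison of day 28 with naive arrays shares the naive arrays with the one above. Again 0 of 32 members were called higher (background 0.511%) and 0 lower (background 0.0128%) in limma. At an unadjusted p under 0.05, 2 were lower (Oasl1 and Oas2) and 0 higher. Over all 7825 genes tested, 253 were lower and 239 higher. The median log2 difference was -0.75, with 24 of 32 negative, against -0.05 and 54.2% negative over all genes tested. It was -0.47, -0.55 and -1.28 without naive replicates 1, 2 and 3. Of 14 antiviral effectors 13 were negative, with a median of -1.25, whereas the 4 transcription factors were split 2 and 2.

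Groups did not overlap in 2 members lower at day 28 (background 9.94% of genes) and in 1 higher (background 7.72%). Of the 2, Oasl1 had passed the filter on naive arrays only. Oasl1 was at -0.45 and -0.50 at day 28 (-1.35 ± 0.55, SE, 2 arrays against 3, limma adjusted p = 0.737), and Oas2 at -0.48 and 0.31 (-1.46 ± 0.61, adjusted p = 0.741). Both day 28 arrays lay below the lowest naive value. Eif2ak2 was at 0.30 and 0.23, above naive values of -0.44, -0.17 and 0.16 (0.42 ± 0.37, adjusted p = 0.997). Ifit1 had the largest negative difference (-2.73 ± 1.22, adjusted p = 0.816), followed by Usp18 (-2.30 ± 1.20, adjusted p = 0.883), and in both naive replicate 3 lay among or below the day 28 arrays. Without naive replicate 3, Usp18 was called lower (-3.78, adjusted p = 0.0178). That fit called 19 of 7825 genes, against 41 in the main fit. Within the arrays of high spike-in signal, day 28 lay below the mean of naive replicates 2 and 3 in 21 of 32 members (65.6%, against 46.7% of all genes), with a median difference of -0.47.

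Markers of other cell types differed at day 28. All 7 tested markers of B cells and both of CD8 T cells rose against naive, with medians of 4.38 and 3.67 on the log2 scale. The median of the B cell markers was 3.90 and 3.42 on the day 28 arrays and between -0.60 and -0.05 on the other 6. It was -0.05, -0.60 and -0.41 on naive replicates 1 to 3. The 5 tested monocyte and macrophage markers had medians of 1.09 and 0.19 at day 28 and the 2 dendritic cell markers of -0.09 and 0.08. Of 4 tested NK cell markers 1, Nkg7, rose at both days (4.05 at day 7 and 3.26 at day 28), whereas the medians of the list were 0.00 and 0.70, and at day 7 Klrd1 and Klra8 had -0.91 and -0.40. None of 7 T cell markers passed the test, and their naive medians were -0.26, 0.80 and 0.39, highest on naive replicate 2. The 3 tested neutrophil markers had medians of 1.11 and 2.78 on day 7 replicates 2 and 3 and of at most 0.49 elsewhere, and none passed the test. The part of these cells in the values of the members was not tested.

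**Figure D5:**
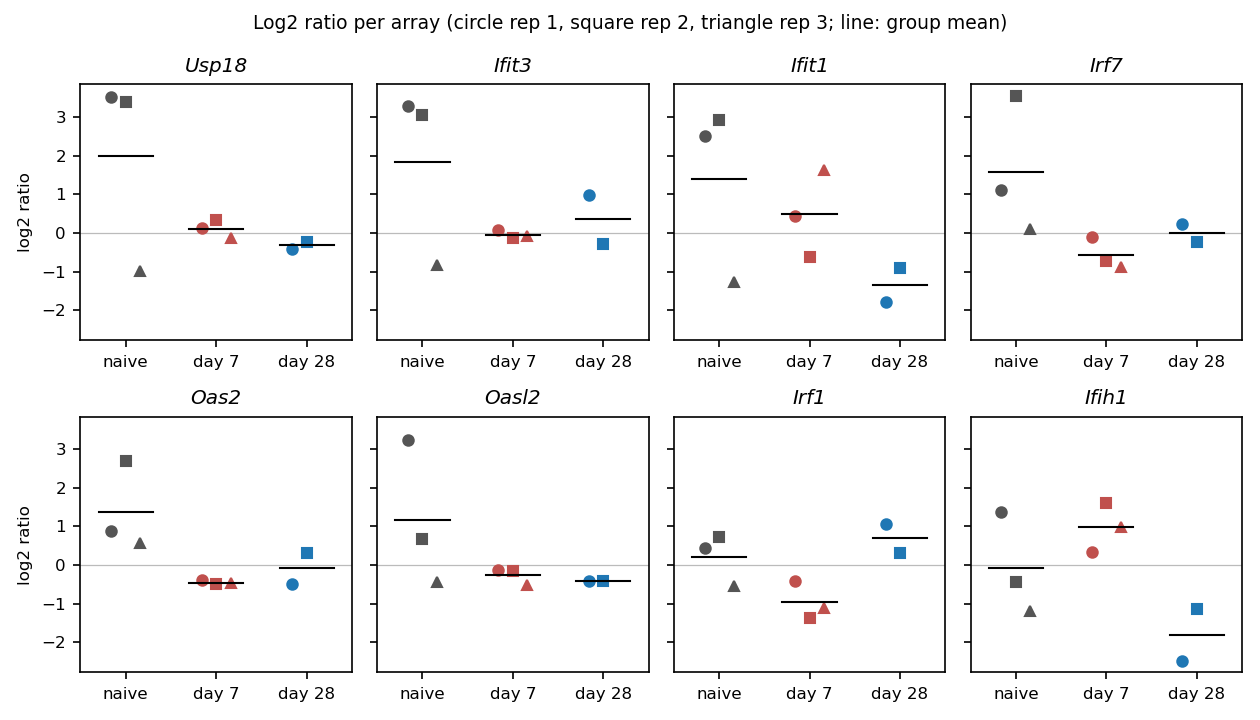
Log2 ratio of 8 members on each array, with group means as lines. Usp18 and Ifit3 show naive replicate 3 far from the other two, Irf7 and Oas2 have all day 7 arrays below all naive arrays, and Irf1 and Ifih1 separate day 28 from day 7 in opposite directions.

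The comparison of day 28 with day 7 does not use the naive arrays to form a difference, although they contribute to the estimate of the spread. In limma 0 of 32 members were called higher (background 0.524%) and 0 lower (background 1.19%). At an unadjusted p under 0.05, 2 were higher (Irf1 and Parp14) and 1 lower (Ifih1). Over all 7825 genes tested, 263 were higher and 1022 lower. The median log2 difference was -0.09, against -0.18 over all genes tested, with 17 negative and 15 positive. Groups did not overlap in 4 members higher at day 28 (background 14.4%) and 7 lower (background 31.2%).

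Ifih1 had the largest difference. It was at 0.33, 1.61 and 0.98 at day 7 and at -2.47 and -1.12 at day 28, a log2 difference of -2.77 ± 0.78 (SE, 2 arrays against 3, limma adjusted p = 0.131). All day 7 arrays lay above both day 28 arrays. Without naive replicate 1 in the fit it was called lower (adjusted p = 0.0322). That fit called 532 of 7825 genes, against 134 in the main fit. Irf1 moved the other way, from -0.42, -1.36 and -1.10 at day 7 to 1.07 and 0.32 at day 28, a difference of 1.66 ± 0.48 (adjusted p = 0.144). Parp14 was at 1.68 and 0.20 at day 28, above all day 7 arrays (1.55 ± 0.61, adjusted p = 0.249). Igtp was at 0.32 and 0.86 against -0.52, -1.36 and -0.41 at day 7 (1.35 ± 0.63, adjusted p = 0.336). Ifi35, a leucine zipper protein that binds other interferon-induced proteins, was the fourth member whose day 28 arrays lay above day 7 (1.15 ± 0.76, adjusted p = 0.488).

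Rsad2 (gene ID 58185), viperin, an enzyme that makes a chain-terminating nucleotide, was at 0.10, -0.24 and 1.03 at day 7 and at -1.36 and -1.26 at day 28 (-1.61 ± 0.86, adjusted p = 0.398). Ifit1 had -1.82 ± 1.22 (adjusted p = 0.491), Zbp1, a sensor of Z-form nucleic acid that can trigger cell death, -0.66 ± 0.58 (adjusted p = 0.604), and the GTPase Ifi47 -0.66 ± 0.75 (adjusted p = 0.682). In each of them both day 28 arrays lay below all day 7 arrays. Usp18 and Oasl1 were also apart, by small differences of -0.43 and -0.08. The spike-in signal separates these groups entirely (low on all day 7 arrays, high on both day 28 arrays), so within these 5 arrays it and the day cannot be told apart. A fit with a spike-in term estimates that term from naive replicate 1 against replicates 2 and 3. In it the median difference of the members was 1.09, and Rsad2, Ifi47 and Ifi35 were among those that changed sign (0.904, 1.29 and -0.30). Usp18 and Oasl1 did so too. Against naive, that fit put them at -3.42 and -1.5 at day 7 and at -1.52 and -1.24 at day 28.

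The remaining members, like those above, were not called in limma's test over the 8 arrays. Ifit2, another member of the tetratricopeptide family, was at 2.64, 1.32 and -0.52 on the naive arrays and between -0.32 and 0.23 on the immunized ones. Mx1, a dynamin-like antiviral GTPase that is defective in many laboratory strains, was highest on naive replicate 2 (1.41) and ran from -0.74 to 0.89 over the other arrays. Isg20, an exonuclease that degrades RNA, and Oas1a varied within every group except day 28, with SDs of 1.54 and 1.54 among naive and 1.73 and 1.60 among day 7 arrays. Dhx58, which tunes RNA sensing, was at 0.97, 1.18 and -0.21 on the naive arrays. Irgm1, a GTPase that guards host membranes, was at 1.28, 0.35 and -0.77, with its highest value on day 7 replicate 1 (1.50). Trim25, a ubiquitin ligase of the RNA sensing pathway, was at 1.83, 0.30 and -0.47, and Rtp4, a negative regulator of that pathway, at 1.47, 0.28 and -0.92. In these values of Dhx58, Irgm1, Trim25 and Rtp4, as in Ifit2, naive replicate 3 was the lowest naive array. In 1 probe set of Trim25 (0.20, -0.28 and 0.03) and 1 of Rtp4 (1.215, 0.107 and 0.911) it was naive replicate 2 instead.

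Among the members too dim to be tested, Socs1, the feedback inhibitor of the receptor kinases, lay between -1.42 and -1.20 on all arrays. Mx2, a dynamin-like GTPase of the Mx family, ran from -0.79 to -0.31. Adar, the enzyme that edits adenosine to inosine in double-stranded RNA, reached 0.99 on naive replicate 2, with the remaining 7 arrays from -1.20 to -0.51. Of the 32 tested members, 2 (Oasl1 and Oasl2) reached a ratio of at least 1 on naive arrays only, so the filter itself required a difference of them. Probe sets of a gene disagreed in places: of 9 members with several tested probe sets, 6 had day 7 differences of both signs (Iigp1, Rsad2, Rtp4, Stat2, Trim25 and Zbp1). Probe sets of Gbp2, Gbp3, Oas1a and Trim30a, which belong to clusters of near-identical genes, may also read their relatives.

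The rest of the interferon pathway was read from a list of 50 ligands, receptors, kinases, other factors, sensing adaptors and inhibitors, of which 32 genes were tested. Against naive, 0 of them were called at day 7 (3 higher and 2 lower at an unadjusted p under 0.05) and 1 was called higher at day 28. Their median differences were 0.09 and 0.12. Over all 7825 genes tested, 1.57% were called higher and 0.179% lower at day 7, and 0.511% higher at day 28. At an unadjusted p under 0.05, 1065 of all genes were higher and 268 lower at day 7. Ifng, which encodes interferon-gamma, had naive values of -0.69, -0.36 and 0.03. It reached 2.70, 6.30 and 3.07 at day 7 and was at -0.12 and -0.07 at day 28. Every day 7 array lay above all others, with a log2 difference of 4.37 ± 0.85 against naive (limma adjusted p = 0.0511, just short of the threshold). Among known targets of interferon-gamma, Irf1 had a day 7 difference of -1.16 and the 6 tested GTPases a median of -0.03, as given above. Irf8, a factor of B cells and myeloid cells, rose at day 28 (2.31 ± 0.33, adjusted p = 0.0277), with 2.10 and 1.28 on its arrays against -0.69 to -0.57 on the naive ones. The B cell markers given above rose on the same 2 arrays. Jak2, a receptor kinase, had 1.55 ± 0.54 (adjusted p = 0.208) and Ptpn6, a phosphatase that damps signalling, -1.16 ± 0.41 (adjusted p = 0.221) at day 7. The 8 receptors and kinases had naive medians of -0.36, 0.10 and -0.50, so that naive replicate 1 did not stand high in them.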

How the data were processed

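Deposited values of 22690 probe sets on 8 Affymetrix arrays, with 0 missing, were used. They are linear ratios. GCRMA is named, with no version, per the submitters' processing notes. Scaling is not given in the sources used here and was read from the deposited ratios: 47.9% of probe sets have a median of 1 over the 8 arrays and no median is higher. Genome build is not given in the sources used here.

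Ratios were turned to log2. Of 22626 probe sets without controls, 13042 (57.6%) reached a ratio of 1 on 2 arrays or more and were tested. Probe sets with 1 gene symbol (20380; 691 had several and 1555 none) were averaged per gene, 7825 in all. A single limma 3.58.1 fit (R 4.3.3) with 1 mean per group covered the 8 arrays. Two-sided p-values were adjusted by the Benjamini-Hochberg method across all genes, with a threshold of 0.05. The fit was tested on simulated data. The labels do not pair replicates, so replicate number entered only an alternative fit. Symbols were matched by gene ID to a RefSeq table (20351 matched, 0 changed), which also supplied promoters.

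The members and lists were chosen with earlier results of these data known. Every member with a probe set could be named. Per-array values were planned for members past the threshold, for the 6 with the largest naive SD and for fixed members. They were also planned for up to 5 per direction and comparison with the smallest p whose groups did not overlap. Some of these, such as Gbp2, were described without array values. Values of Ifit2, Dhx58, Irgm1, Trim25, Rtp4 and some others were given outside that rule. Alternatives were other filters, normalizations, probe set summaries, variance models, a replicate block, a spike-in term, array weights and leaving out each array. The number of arrays limits the precision.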

Additional observations from a re-analysis of the deposited data

How the results depend on the processing

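Over the 20 alternatives, the count of members called stayed at 0 in each comparison except as follows. With array weights, whose estimation stopped before convergence, it was 8 of 32 at day 7 against naive (7 lower, 1 higher) and 3 at day 28 against day 7. That fit called 1852 and 1168 of 7825 genes in these comparisons. Leaving out 1 array at a time gave from 0 to 2 at day 7 against naive (1 without naive replicate 1, Trim30a; 2 without naive replicate 3, Ifit3 and Usp18), from 0 to 1 at day 28 against naive (Usp18, without naive replicate 3) and from 0 to 1 at day 28 against day 7 (Ifih1, without naive replicate 1). Over all 7825 genes, the fit without naive replicate 1 called 1121 at day 7 against naive and 532 at day 28 against day 7. The fit without naive replicate 3 called 40 at day 7 and 19 at day 28 against naive. With the spike-in term the median difference of the members was -1.28 at day 7 against naive and 1.09 at day 28 against day 7. By its construction that fit sets the day 7 arrays against naive replicate 1 alone, and the day 28 arrays against naive replicates 2 and 3. Leaving out arrays, it ran from -1.11 to -0.364, from -1.28 to -0.467 and from -0.14 to 0.0915 in the 3 comparisons. With the spike-in term Trim30a turned to -1.27 at day 7 against naive. Among others, Ifi35, Rsad2 and Ifi47 turned to -0.30, 0.904 and 1.29 at day 28 against day 7. Trim30a at day 28 against naive ran from -0.0677 (without naive replicate 3) to 1.91 (without naive replicate 1). Naive replicate 3 was the lowest naive array in 87.5% of members, against 45.7% of all genes. The share was 85.7% with no filter and 79.5% over the 44 tested probe sets of the members. Without naive replicate 1 or 2, replicate 3 was the lower of the 2 arrays left in 93.8% and 90.6% of members. By construction these last shares could not fall below 87.5%.

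Same-numbered arrays of different groups deviated from their group means with correlations from -0.367 to 0.146. Deviations within groups of 2 or 3 arrays sum to 0, so these correlations cannot decide whether the numbers pair the samples. With the replicate block the medians of the members were -0.62, -1.04 and -0.385 and 0 were called in each comparison, while calls over all genes went from 137, 41 and 134 to 47, 10 and 13. They were 1852, 47 and 1168 with array weights, 18, 56 and 3 with the spike-in term, 65, 17 and 56 with trended and robust variance, and 84, 7 and 445 with only the 2 groups compared. With no filter they were 70, 32 and 106, with the stricter filter 101, 27 and 74, and with an adjusted p under 0.01 29, 10 and 24. Leaving out arrays they ran from 25 to 1121, 11 to 56 and 15 to 532.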
